A study of Mus musculus with 8 samples.

Results

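Chemokines are small secreted or membrane-anchored proteins that direct the movement of leukocytes through G protein-coupled receptors on the responding cells. The 10 genes described here encode the chemokines Ccl2, Ccl5, Ccl9, Cxcl1, Cxcl9, Cxcl10, Cxcl12, Cxcl13, Cxcl16 and Cx3cl1. They were chosen by name. Each was measured by 1 probe set of an Affymetrix Mouse Gene 1.0 ST array, an oligonucleotide array that reads a transcript with several probes along its length. All 10 of the 10 genes had such a probe set, among 19938 genes tested.

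Liver RNA of male mice 8 weeks old was hybridised to 8 arrays. On 4 of them it came from mice in which Hmgb1, the gene of a chromatin protein that also acts as a danger signal outside cells, had been removed by Albumin-Cre. The albumin promoter drives this recombinase in hepatocytes, and whether other liver cells kept their Hmgb1 alleles was not measured. The other 4 arrays held RNA of littermates with floxed Hmgb1 alleles and no Cre in their sample titles, and the effect of Cre itself and that of the deletion cannot be told apart. The labels conflict on tissue and strain, with whole liver and C57Bl/6 in the protocols but stellate cells and Balb/c among the sample characteristics. Arrays are called deleted 1 to 4 and control 1 to 4 after the numbers in the titles.

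In the liver, chemokines come from macrophages, sinusoidal endothelial cells, stellate cells, bile duct cells and hepatocytes. They are commonly grouped into those induced by inflammatory signals through NF-κB, those induced by interferons, and those made at a steady level that place lymphocytes and progenitor cells in tissues. HMGB1 that has left the cell can form a complex with CXCL12 that acts on its receptor CXCR4, and as a danger signal it can induce other chemokines through receptors of innate immunity.

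The array values are log2 intensities, so that a difference of 1 is a 2-fold change. Hmgb1 had 4.91, 4.20, 4.53 and 4.74 on deleted 1 to 4, against 5.35, 5.42, 5.45 and 5.78 on control 1 to 4, and all deleted arrays lay below all controls. The log2 fold change was −0.91 with an SE of 0.14 (limma adjusted p = 0.0216). Hmgb1 was dim, with 16.4% of genes at a lower mean, which limits the reading of the size of this fall. The call was lost without deleted 3, deleted 4, control 3 or control 4 (adjusted p = 0.0730, 0.0687, 0.0561 and 0.0797), with log2 fold changes of −0.95 to −0.81, and with every probe set in the fit (adjusted p = 0.0652). Array medians ran from 6.08 to 6.22. On the leading principal component, which held 37.6% of the variance, deleted arrays scored −11.7 to 11.4, controls 2 to 4 scored −9.89 to −6.33, and control 1 stood apart at 26.6. Albumin (Alb), the main hepatocyte product, had 13.26 to 14.03 on the 8 arrays. The stellate cell markers Lrat and Reln had 7.82 to 8.87 and 9.05 to 9.29. The labels do not say whether each array held RNA of its own animal, so n counts arrays, and the p-values therefore measure only the spread between arrays, which may be technical.

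None of the 10 chemokines passed the threshold of an adjusted p under 0.05 (0 of 10, limma), where 0.692% of all genes tested did, 0.296% higher and 0.396% lower. At an unadjusted p under 0.05 there was 1 of 10, Ccl9, where 9.46% of all genes were. Of the 10, 6 had a higher and 4 a lower mean in the deleted livers. Their median log2 fold change was 0.015, beside 0.00 over all genes tested, and their median size without sign was 0.10, beside 0.058 over all genes. The 4 deleted arrays all lay above the 4 controls for Ccl9 and all below them for Cxcl12, which is 2 of 10 genes without overlap, where 5.57% of all genes had none (3.28% higher, 2.30% lower). The 95% interval of each of the 10 lay within a 2-fold change in either direction, and that of 8 lay within 1.5-fold, the exceptions being Cxcl9 and Cxcl10. An adjusted p above the threshold does not show that the groups were alike. The same share of 0.692% stands beside each count past the threshold below, and at that share a short list would mostly hold none.

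**Figure D1:**
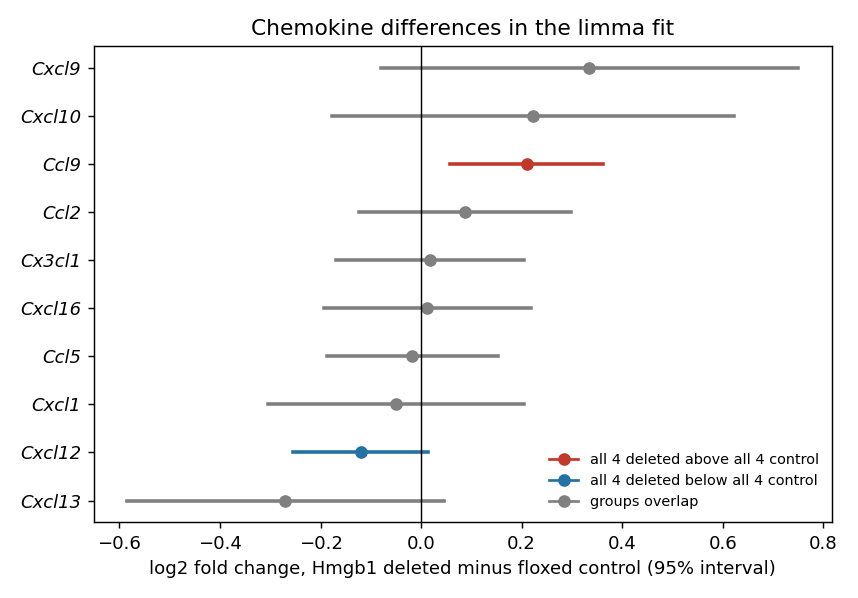
Log2 fold change (deleted minus control) of the 10 chemokines on the horizontal axis, with the 95% interval of the limma fit, ordered by size, in red where all deleted arrays lay above all controls, in blue where all lay below and in grey where the groups overlap. Only the interval of Ccl9, from 0.058 to 0.36, lies to one side of 0, and the intervals of Cxcl9 and Cxcl10 are the widest.

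Among the chemokines of myeloid cells, Ccl9, a ligand of the receptor CCR1 made by macrophages and other myeloid cells, had the smallest p of the 10. Ccl9 had log2 intensities of 10.69, 10.80, 10.69 and 10.62 on deleted 1 to 4, against 10.37, 10.45, 10.58 and 10.56 on control 1 to 4. Every deleted array was above every control, with a gap of 0.04 between the lowest deleted array (10.62) and the highest control (10.58). The log2 fold change of Ccl9 was 0.21 (1.16-fold, SE 0.069, 95% interval 0.058 to 0.36, limma adjusted p = 0.286). Ccl9 was also bright, with 95.8% of tested genes at a lower mean. Leaving out 1 array gave Ccl9 values from 0.17 to 0.24, the lowest without control 1. Its adjusted p was 0.0443, below the threshold, in 1 alternative, in which quantile normalization was applied to the arrays again. In whole liver RNA, more cells that make a transcript and more transcript per cell cannot be told apart. Markers of Kupffer cells, the resident macrophages of the liver, and of other macrophages gave 0 of 13 past the threshold, where 0.692% of all genes passed. The list means of these markers were 8.50 to 8.61 on deleted and 8.48 to 8.65 on control arrays. The Kupffer cell lectin Clec4f had 10.06 to 10.17 on deleted and 9.97 to 10.09 on control arrays, and Timd4 had 6.98 to 7.17 on deleted and 6.85 to 7.14 on control arrays. At an unadjusted p under 0.05 (limma) there were 2 of the 13, where 9.46% of all genes were. Both had lower means in the deleted livers, Vsig4 at −0.23 and Lyz2 at −0.35 (limma adjusted p = 0.325 and 0.370). Without deleted 3, Lyz2 had −0.22. The part of macrophages in the Ccl9 values was not tested.

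Ccl2, the main attractant of monocytes, had 6.66, 6.25, 6.39 and 6.34 on deleted 1 to 4, against 6.42, 6.37, 6.14 and 6.36 on control 1 to 4. The groups overlapped, and the highest value was that of deleted 1. Its log2 fold change was 0.088 (95% interval −0.12 to 0.30, limma adjusted p = 0.938), and 0.0042 without deleted 1, 0.14 without deleted 2 and 0.027 without control 3. The receptor of this chemokine, Ccr2, averaged 4.58 on deleted and 4.57 on control arrays. Ccl5, which attracts T cells and monocytes, had 7.42, 7.53, 7.57 and 7.54 on deleted 1 to 4, against 7.73, 7.40, 7.50 and 7.50 on control 1 to 4. The highest array was control 1, and the difference of −0.018 (95% interval −0.19 to 0.15) changed sign to 0.048 without it.

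Cxcl1, a chemokine with strong activity on neutrophils, had 7.07, 6.95, 7.50 and 7.09 on deleted 1 to 4, against 7.30, 7.00, 7.25 and 7.26 on control 1 to 4. The highest array, deleted 3, and the lowest, deleted 2, both belonged to the deleted group. Cxcl1 had a log2 fold change of −0.050 (95% interval −0.30 to 0.20, limma adjusted p = 0.986). Its receptor Cxcr2 averaged 4.90 on deleted and 4.89 on control arrays. Neutrophil markers gave 0 of 11 past the threshold, where 0.692% of all genes passed. The list means of these markers were 5.27 to 5.40 on deleted and 5.27 to 5.48 on control arrays. The neutrophil granule proteins S100a8 and S100a9 had 4.99 to 5.04 and 5.36 to 5.65 on deleted arrays, and 4.90 to 5.12 and 5.44 to 5.71 on control arrays. Cxcr2 and S100a8 were dim, with 13.3% and 15.6% of genes at a lower mean. Flat values of dim genes do not show that neutrophils were unchanged.

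Cxcl9 and Cxcl10 are induced by interferons, lie in one gene cluster on chromosome 5 and attract activated T and NK cells through the receptor CXCR3. Cxcl9 had 8.53, 8.61, 9.44 and 9.16 on deleted 1 to 4, against 8.36, 8.53, 8.86 and 8.65 on control 1 to 4. Deleted 3 and deleted 4 were above all other arrays, while deleted 1 and deleted 2 lay among the controls. The means were 8.94 ± 0.44 on deleted and 8.60 ± 0.21 on control arrays (SD, n = 4 each), the largest log2 fold change of the 10 at 0.34 (1.26-fold, 95% interval −0.081 to 0.75, limma adjusted p = 0.697). Without deleted 3 it was 0.17.

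Cxcl10 had 7.53, 7.52, 7.96 and 7.70 on deleted 1 to 4, against 6.86, 7.64, 7.82 and 7.50 on control 1 to 4. The lowest of the 8 arrays was control 1, 0.64 below the next control, and the highest was deleted 3. Cxcl10 averaged 7.68 ± 0.21 on deleted and 7.46 ± 0.42 on control arrays (SD, n = 4 each), with a log2 fold change of 0.22 (95% interval −0.18 to 0.62, limma adjusted p = 0.877). The log2 fold change of Cxcl10 was 0.024 without control 1 and 0.34 without control 3. Both genes varied more between arrays of one group than most genes did. The pooled SD within groups was 0.34 for Cxcl9 and 0.33 for Cxcl10, and 99.0% and 98.9% of tested genes had a smaller one.

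The windows of 250 bases before the gene starts are shown for these 2 chemokines, which were highest on the array numbered 3 of each group, and for Cxcl13, which was lowest on it. They are RefSeq sequences of build GRCm38.p6, written 5′ to 3′ along the gene's strand, with capitals for matches to the core of the interferon-stimulated response element (GAAA, any 2 bases, GAAA, on either strand) and to the classical NF-κB consensus (either strand).
Cxcl10 (chr5:92348890-92349139, minus strand): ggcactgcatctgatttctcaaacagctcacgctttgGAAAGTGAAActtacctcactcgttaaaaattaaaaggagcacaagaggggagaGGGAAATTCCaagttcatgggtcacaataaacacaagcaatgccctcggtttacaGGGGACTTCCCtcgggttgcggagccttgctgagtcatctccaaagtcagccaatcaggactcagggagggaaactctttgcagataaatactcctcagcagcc
Cxcl9 (chr5:92328080-92328329, minus strand): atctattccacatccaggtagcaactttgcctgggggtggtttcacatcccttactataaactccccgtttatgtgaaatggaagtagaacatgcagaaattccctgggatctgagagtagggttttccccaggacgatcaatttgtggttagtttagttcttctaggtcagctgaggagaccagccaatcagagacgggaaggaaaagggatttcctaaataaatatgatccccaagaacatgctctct
Cxcl13 (chr5:95956689-95956938, plus strand): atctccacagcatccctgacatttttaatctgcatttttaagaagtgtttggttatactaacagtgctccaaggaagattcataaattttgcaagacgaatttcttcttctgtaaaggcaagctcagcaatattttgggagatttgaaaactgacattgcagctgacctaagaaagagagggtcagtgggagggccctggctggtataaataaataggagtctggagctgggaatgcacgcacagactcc
The Cxcl10 window held 1 match to the response element core, starting at position −213 from the gene start, and 3 to the NF-κB consensus, starting at −159, −104 and −103. The last 2 overlap and form 1 run of capitals. The windows of Cxcl9 and Cxcl13 held neither motif. Among 32851 windows of this length, 2.98% held the response element core and 7.25% the NF-κB consensus. Of the other members in the sequence table, Cxcl1 had 2 overlapping NF-κB matches, Ccl9 had 1, and Cxcl12 and Cx3cl1 had none. These matches are letters in a window and say nothing on binding.

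Cxcl13, which attracts B cells through CXCR5, had 7.92, 7.98, 7.39 and 7.84 on deleted 1 to 4, against 8.19, 8.15, 7.70 and 8.17 on control 1 to 4. Within each group the array numbered 3 was the lowest, and the other 3 deleted arrays lay below the other 3 controls. The means were 7.78 ± 0.27 on deleted and 8.05 ± 0.24 on control arrays (SD, n = 4 each), with a log2 fold change of −0.27 (1.21-fold lower, 95% interval −0.58 to 0.045, limma adjusted p = 0.655). Leaving out deleted 3 gave −0.14 and leaving out control 3 gave −0.39. Its receptor Cxcr5 averaged 4.66 on deleted and 4.71 on control arrays. Markers of B cells gave 0 of 5 past the threshold, with list means of 5.38 to 5.49 on deleted and 5.37 to 5.51 on control arrays. Among dendritic cell markers it was 0 of 5, with list means of 5.85 to 5.90 on deleted and 5.85 to 6.02 on control arrays.

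The arrays numbered 3 thus had the highest Cxcl9 and Cxcl10 and the lowest Cxcl13 of their group, in both groups. No correlation is given over the 8 arrays, since these 2 arrays stand apart from the other 6 for Cxcl13. The labels do not say that a shared number means a shared litter or day. Over all genes tested, the deviations of deleted 3 and control 3 from their group means had a correlation of −0.081. Irf7, a transcription factor that interferons induce, was also highest on deleted 3, with 9.17, 8.97, 10.04 and 9.48 on deleted 1 to 4, against 8.63, 8.65, 9.02 and 8.87 on control 1 to 4. Control 3 had the highest Irf7 of the controls. Other interferon genes were mixed. Irf1 and Irf9 were highest on the array numbered 3 of each group. Irf3 was highest on deleted 3 (8.94) but on control 4 (8.62) among the controls. The chemokine Cxcl11 was highest on deleted 4 (7.29) and control 2 (7.07). Socs1 was highest on deleted 1 (7.32) and lowest of all on control 3 (6.98).

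**Figure D2:**
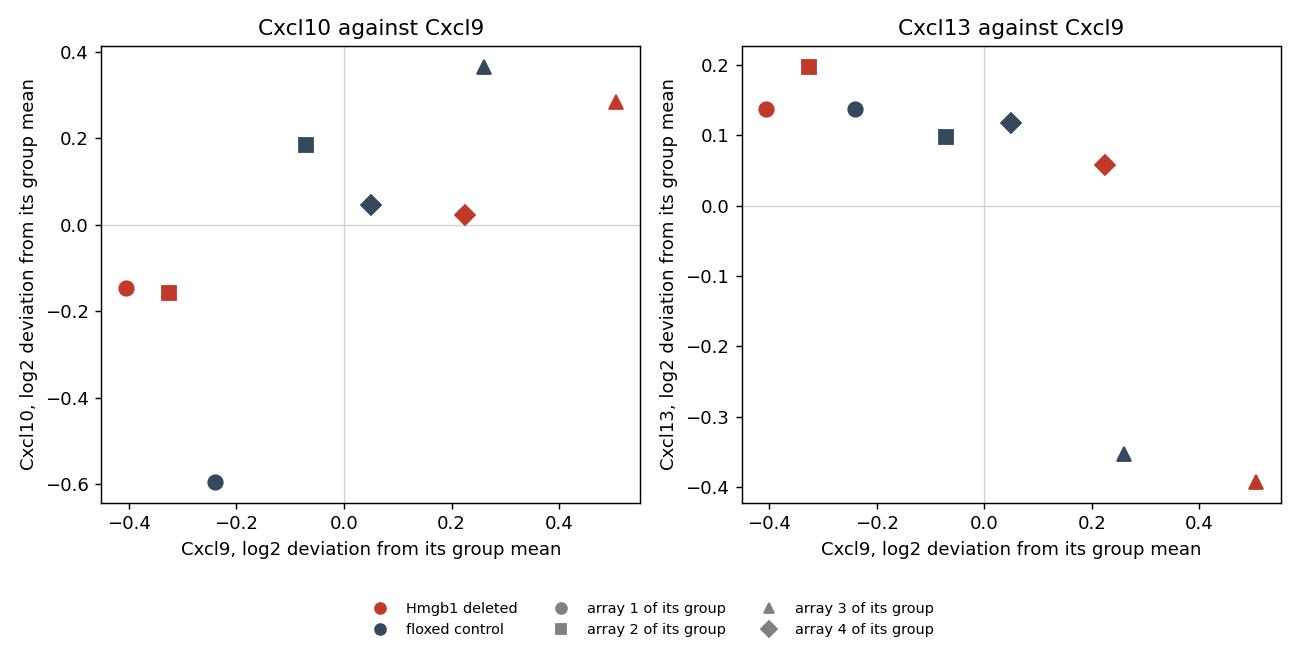
Deviation of each array from its group mean, on the log2 scale, for Cxcl10 (left, vertical axis) and Cxcl13 (right, vertical axis) against Cxcl9 (horizontal axis), with the group by colour and the array number by symbol. The triangles, deleted 3 (Cxcl9 9.44) and control 3 (Cxcl9 8.86), lie farthest right of their group in both panels, at the top of their group for Cxcl10 and at the bottom for Cxcl13.

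Cxcl12, a chemokine made at a steady level by stromal and endothelial cells that retains blood progenitors and lymphocytes, had 9.12, 9.16, 9.07 and 9.17 on deleted 1 to 4, against 9.20, 9.18, 9.34 and 9.28 on control 1 to 4. All deleted arrays lay below all controls, by 0.01 between deleted 4 (9.17) and control 2 (9.18). The log2 fold change was −0.12 (1.09-fold lower, SE 0.061, 95% interval −0.25 to 0.014, limma adjusted p = 0.628), and −0.14 to −0.090 when 1 array was left out. Cxcl12 varied little within groups, with a pooled SD of 0.061 that was larger than those of 10.4% of genes. The receptor Cxcr4 averaged 6.12 on deleted and 6.21 on control arrays, and Ackr3, which binds CXCL12 and removes it, had 5.20 on deleted and 5.11 on control arrays.

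Markers of sinusoidal endothelial cells had a lower mean in the deleted group in 10 of 10, where 9928 of 19938 genes tested did. Of the 10, 7 had an unadjusted p under 0.05 (limma), where 9.46% of all genes had one. In 3 of the 10 the groups did not overlap, where 2.30% of all genes were lower without overlap. The list mean was 9.004 to 9.13 on deleted and 9.25 to 9.39 on control arrays. The lectin Clec4g was the 1 marker past the threshold and fell by 0.62 (SE 0.076, limma adjusted p = 0.00628), while the scavenger receptor Stab2 averaged 8.92 ± 0.084 on deleted and 9.13 ± 0.12 on control arrays (SD, n = 4 each). Stab1 had 8.46 to 8.65 on deleted and 8.61 to 8.74 on control arrays. The probe sets of Clec4g disagreed in size, and their mean gave −0.27 (adjusted p = 0.121). Bile duct markers, another possible source of chemokines, had list means of 6.02 to 6.27 on deleted and 6.30 to 6.38 on control arrays, with 0 of 4 past the threshold. Of these, Krt19 had 6.16 to 6.26 on deleted and 6.11 to 6.30 on control arrays, and Krt7 had 5.93 to 6.42 and 6.20 to 6.68. Sox9 was the 1 bile duct marker without overlap, with 7.19 to 7.32 on deleted and 7.41 to 7.75 on control arrays and a log2 fold change of −0.35 (limma adjusted p = 0.0854, and 0.0102 without control 1). Epcam had −0.19, or −0.10 without deleted 4 and −0.12 without control 2. Stellate cell markers had list means of 8.23 to 8.34 on deleted and 8.23 to 8.35 on control arrays (0 of 11). Lower means were not particular to the endothelial list. They were found in 7 of 8 hepatocyte, 3 of 4 bile duct and 8 of 11 stellate cell markers. The medians of these lists were −0.17, −0.15 and −0.015, beside −0.21 for the endothelial markers. The hepatocyte list mean was 12.75 on deleted 4 and 13.11 to 13.17 on the other deleted arrays, against 13.14 to 13.23 on controls. Hepatocyte and stellate list means thus overlapped between groups, and endothelial and bile duct list means did not. The part of these cell types in the Cxcl12 values was not tested.

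Cxcl16 and Cx3cl1 differ from the other members in being made as membrane proteins, from which the proteases ADAM10 and ADAM17 release a soluble chemokine. Cxcl16 had 6.49, 6.79, 6.66 and 6.66 on deleted 1 to 4, against 6.39, 6.69, 6.77 and 6.70 on control 1 to 4. The array numbered 1 was the lowest of each group and the rest overlapped, with a log2 fold change of 0.012 (95% interval −0.19 to 0.22) that became −0.070 without control 1. Cx3cl1 had 6.61, 6.33, 6.40 and 6.20 on deleted 1 to 4, against 6.42, 6.29, 6.36 and 6.40 on control 1 to 4. Here the highest and the lowest array were both deleted ones, and the log2 fold change was 0.018 (95% interval −0.17 to 0.20). Their receptors Cxcr6 and Cx3cr1 had means of 5.18 and 6.66 on deleted and 5.22 and 6.67 on control arrays. Adam17 had a log2 fold change of 0.10 (95% interval −0.096 to 0.30), which was 0.16 without deleted 1, 0.031 without deleted 2 and 0.046 without control 1. Dpp4, which trims CXCL10 and CXCL12 at their amino end, had −0.025 (95% interval −0.17 to 0.12), and the gelatinase Mmp9 had −0.27 (95% interval −0.47 to −0.075, limma adjusted p = 0.285). None of the 5 proteases passed (0 of 5, limma, 1 at an unadjusted p under 0.05, where 9.46% of all genes were).

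**Figure D3:**
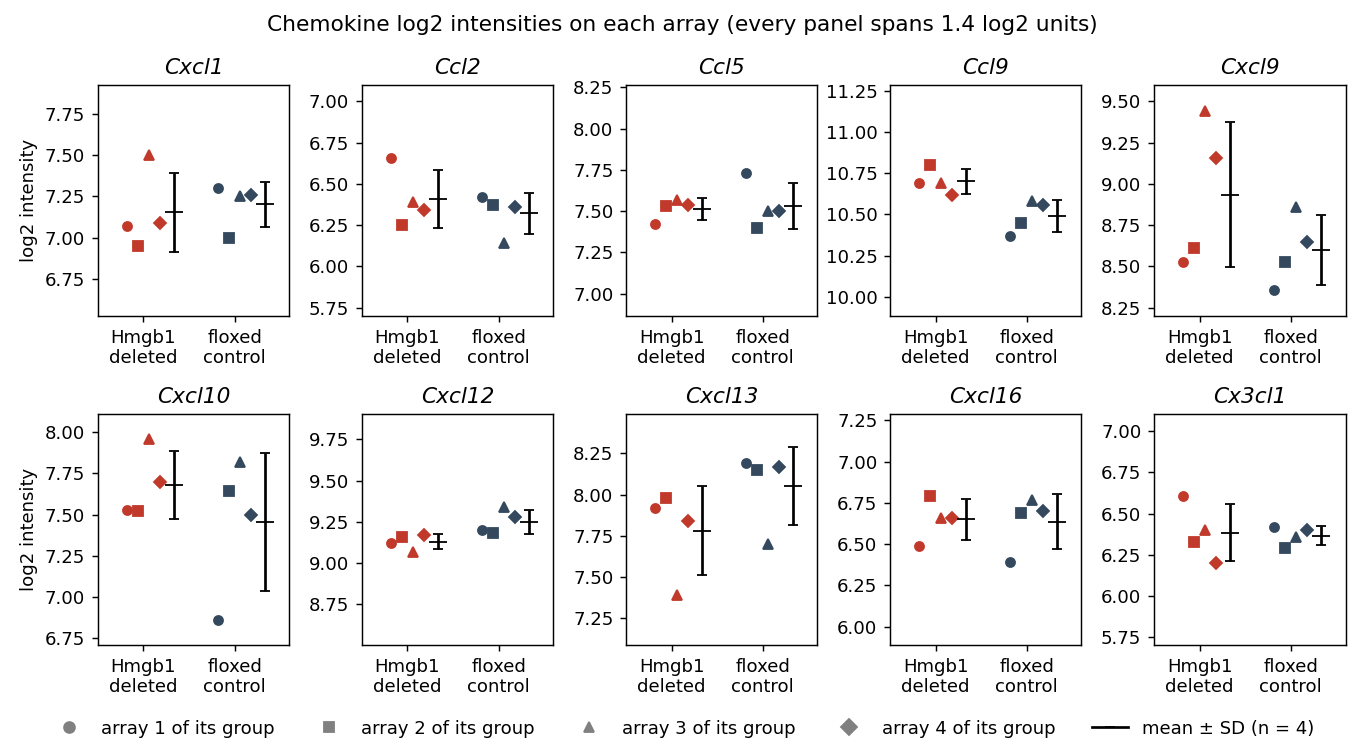
Log2 intensity (vertical axes, each spanning 1.4 units) of the 10 chemokines on the 4 deleted arrays (left in each panel) and the 4 control arrays (right), with the array number by symbol and the mean ± SD beside each group. Only Ccl9 and Cxcl12 have no overlap between the groups, and Cxcl10 shows control 1 far below the other controls at 6.86.

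Of the other chemokine ligands, 26 of 28 were measured by a probe set of their own, and 0 passed the threshold (limma, 3 at an unadjusted p under 0.05, where 9.46% of all genes were), with 14 higher, 12 lower and a median log2 fold change of 0.010. The groups did not overlap in 2 of the 26, where 5.57% of all genes had no overlap. The one with the smallest p was Cxcl11, the third ligand of CXCR3. Cxcl11 had 7.18, 7.10, 7.23 and 7.29 on deleted 1 to 4, against 6.78, 7.07, 6.93 and 6.95 on control 1 to 4. All deleted arrays were above all controls, with a log2 fold change of 0.27 (1.20-fold, SE 0.074, limma adjusted p = 0.181). All 3 ligands of CXCR3 thus had higher means in the deleted livers without passing. Each of the 3 had its lowest value on control 1, with 8.36 for Cxcl9, 6.86 for Cxcl10 and 6.78 for Cxcl11. Control 1 was also the array that stood apart on the leading principal component. Without control 1 the log2 fold changes were 0.255 for Cxcl9, 0.024 for Cxcl10 and 0.22 for Cxcl11. Ccl25, an attractant of CCR9-bearing T cells, had −0.20 (SE 0.060, adjusted p = 0.242) with all deleted arrays below all controls, and Ccl3, an inflammatory chemokine of macrophages, had 0.22 (SE 0.092, adjusted p = 0.475), or 0.14 without control 2.

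Chemokine receptors gave 0 of 21 past the threshold (limma, 1 at an unadjusted p under 0.05, where 9.46% of all genes were), with 10 higher, 11 lower and a median of −0.015. The smallest p was that of Ackr1, an atypical receptor of venular endothelium and red cells, at −0.19 (95% interval −0.37 to −0.013, adjusted p = 0.472). It was followed by Ccr1, a receptor of CCL9 and CCL5, at 0.10 (95% interval −0.049 to 0.25), which was dim, with 5.07% of genes at a lower mean. Cxcr3, the receptor of CXCL9, CXCL10 and CXCL11, had 0.15 (95% interval −0.074 to 0.37), which was 0.24 without control 1 and 0.095 without control 4. Markers of T and NK cells gave 0 of 12 past the threshold, where 0.692% of all genes passed. The list means of these markers were 5.48 to 5.70 on deleted and 5.58 to 5.72 on control arrays. The T cell receptor subunits Cd3e and Cd3d had 6.47 to 6.76 and 4.76 to 5.06 on deleted arrays, and 6.59 to 6.76 and 4.71 to 4.96 on control arrays.

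The signalling genes upstream of these chemokines also gave no call. Of 16 measured genes of interferon signalling 0 passed (limma, 4 at an unadjusted p under 0.05, all 4 higher), with 10 higher, 6 lower and a median of 0.091. Over all genes tested, 9.46% had an unadjusted p under 0.05 (limma). The share higher without overlap was 3.28% over all genes, beside 2 of these 16. Irf3, which starts the type I interferon response, had 0.26 (SE 0.068, adjusted p = 0.145) without overlap between groups, Irf7 had 0.62 (SE 0.19, adjusted p = 0.248, and 0.41 without deleted 3), and the feedback inhibitor Socs1 had 0.18 (SE 0.063, adjusted p = 0.325) without overlap. The list mean was 8.32 to 8.55 on deleted and 8.13 to 8.34 on control arrays, lowest on control 1 and highest on deleted 3. Of 15 measured genes of TNF, IL-1, TLR and NF-κB signalling 0 passed (1 at an unadjusted p under 0.05), with 5 higher, 10 lower and a median of −0.018. The NF-κB inhibitor Nfkbia, itself a target of NF-κB, had −0.32 (95% interval −0.60 to −0.049, adjusted p = 0.397), the cytokine Il1a had −0.21 (95% interval −0.49 to 0.066), and the kinase subunit Ikbkg had 0.12 (95% interval −0.048 to 0.30). Il1a had −0.13 without deleted 3 and −0.32 without control 1, and Ikbkg had 0.062 without control 1.

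**Figure D4:**
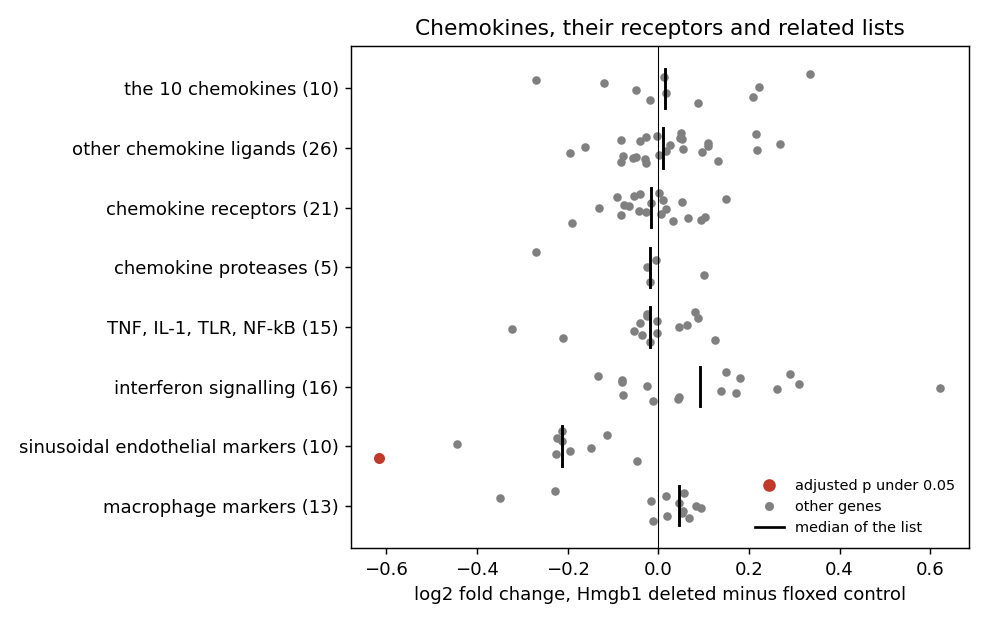
Log2 fold change (deleted minus control, horizontal axis) of each measured gene of 8 lists, with the number of genes in brackets and a bar at each list's median. The single gene past the threshold is Clec4g among the sinusoidal endothelial markers, whose median is −0.21, and the 10 chemokines lie on both sides of 0 with a median of 0.015.

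Hepatocyte markers had list means of 12.75 to 13.17 on deleted and 13.14 to 13.23 on control arrays (0 of 8 past the threshold), lowest on deleted 4, and Ttr had 12.83 to 13.24 on deleted and 13.18 to 13.39 on control arrays. Platelet markers, 2 of which were measured, had list means of 6.29 to 6.46 on deleted and 6.20 to 6.58 on control arrays (0 of 2). The B cell marker Ms4a1 had 4.47 to 4.63 on deleted and 4.55 to 4.83 on control arrays, and the dendritic cell markers Itgax and Flt3 had 5.71 to 5.90 and 6.04 to 6.11 on deleted and 5.66 to 6.09 and 6.03 to 6.09 on control arrays. Platelet integrin Itga2b had 6.70 to 7.00 on deleted and 6.88 to 7.17 on control arrays, and Gp9 had 5.63 to 5.96 and 5.52 to 5.98.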

How the data were processed

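For 4 Hmgb1 deleted and 4 floxed control arrays, 150 ng of liver RNA was amplified, labelled with biotin and hybridised, per the labels' protocols. The authors deposited log2 intensities made with RMA, per the submitters' processing notes, a method of background correction, quantile normalization and probe summary. For the version of RMA and the genome build, nothing was given in the sources used here.

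Of 35556 probe sets, 21789 carried exactly 1 gene symbol in GEO's platform annotation, 1621 several and 12146 none. Each of 19938 genes was represented by its probe set with the highest mean over the 8 arrays, and all 10 chemokines had 1 probe set each. Names were checked against the RefSeq gene table of GRCm38.p6, which held the gene IDs of 21698 of these 21789. The 2-sided group comparison used lmFit and eBayes of limma 3.58.1, run under R 4.3.3, and group was the only term. Benjamini-Hochberg adjustment covered the whole set of genes, with a threshold of 0.05. Differences are deleted minus control. Python 3.11.15 was used for tables.

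The members, the lists and the alternatives were chosen with earlier results of these data known. Named genes were Hmgb1, the members, of each ligand, receptor, protease and signalling list every gene past the threshold and the 3 with the smallest p, and the first 2 genes of each marker list, where they were measured. Receptors of the members were added for their ligands, and Clec4g, Vsig4, Lyz2, Sox9 and Epcam after their values were seen. Intensities of different probe sets do not rank abundance. On simulated arrays of this comparison (19938 genes) the fit recovered 94.0% of 67 genes changed 1.5-fold, and 16 of 212 calls were false. The changed genes were drawn at random and the noise was independent between arrays, with no array standing apart as control 1 did. Cxcl9, Cxcl10 and Cxcl13 varied more within groups than 99.0%, 98.9% and 96.6% of genes. The recovered share is therefore not the power for these chemokines. Smaller changes, such as those of the 10 chemokines, were not simulated. Precision was limited by 4 arrays a group. The alternatives left out dim genes, kept every probe set or averaged those of 1 gene, repeated the quantile normalization, centred each array, added a trend, a robust prior or weights per array to limma, took the replicate number as a block, or dropped each array in turn.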

Additional observations from a re-analysis of the deposited data

Results flagged for a closer look

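For each named gene and each group, the gap between the extreme array and its nearest neighbour was divided by the range of the 4 values and set against Dixon's limit. It was exceeded in 10 of 114 such groups, where chance gives about 1 in 20, or 5.7. Among the chemokines, Cxcl13 had 7.70 on control 3 against 8.15 to 8.19 on the other controls, and Cxcl1 had 7.00 on control 2 against 7.25 to 7.30. Among related genes, Ccl25 had 6.99 on deleted 3 against 7.10 to 7.12, Dpp4 10.31 on deleted 2 against 10.19 to 10.21, and Socs1 6.98 on control 3 against 7.09 to 7.11. Among cell type markers, Alb had 13.26 on deleted 4 against 13.93 to 14.03, and Epcam had 5.38 on control 2 against 5.08 to 5.12. Control 1 gave S100a9 5.71 against 5.44 to 5.48, Lrat 7.82 against 8.76 to 8.87, and Itga2b 7.17 against 6.88 to 6.92.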

How the results depend on the processing

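None of the 10 chemokines passed the threshold in any alternative except Ccl9 after quantile normalization again (1 of 10, difference 0.24, adjusted p = 0.0443). Over all genes, 138 passed. It was 264 (153 higher, 111 lower) after quantile normalization again, 61 (33 higher, 28 lower) with arrays centred on their medians and 526 with array weights. It was 37 (without deleted 4) to 321 (without control 1) with 1 array left out, and 366 without deleted 1 and control 1, a setting chosen after seeing the data. It was 157 with a filter on dim genes, 105 with all probe sets, 134 with probe sets averaged per gene, 135 with a variance trend and 132 with a robust prior. With the replicate number as a block it was 325, and 0 of the 10 chemokines passed. At an unadjusted p under 0.05 (limma) there were 3 of the 10 with the block, beside 1 in the main fit. The share of all genes at that level was not counted with the block. The SE of Cxcl9 was 0.091 with the block, against 0.19 in the main fit, and its limma adjusted p was 0.142. The lowest limma adjusted p of Cxcl13 over all alternatives was 0.0689. Deviations of same-numbered arrays had correlations of 0.45, 0.065, −0.081 and 0.42 for numbers 1 to 4. Deleted 1 and deleted 4 correlated best with their own number, and deleted 2 and deleted 3 did not. The labels state no pairing and the main fit took none, but whether the numbers pair the arrays is not known. The sign of 6 chemokines held in all alternatives. The other 4 turned in 14 of 180 chemokine values. Ccl5 had 0.0025 with arrays centred, 0.042 with array weights and 0.080 without both arrays numbered 1, and −0.062 to 0.048 with 1 array left out. Cxcl1 had 0.010 without both, and −0.17 to 0.018 with 1 left out. Cxcl16 had −0.020 with array weights and −0.017 without both, and −0.070 to 0.066 with 1 left out. Cx3cl1 had −0.040 without both, and −0.058 to 0.079 with 1 left out. Of the related genes, Cxcr2 had −0.0067 without both arrays numbered 1. Cx3cr1 had 0.0050 with arrays centred, 0.028 with array weights and 0.067 without both. With 1 array left out Cxcr2 ran from −0.012 to 0.041, Ccr2 from −0.022 to 0.020, Cx3cr1 from −0.057 to 0.040, and Dpp4 from −0.069 to 0.014. The cause was not tested. Irf7 passed with the block (adjusted p = 0.0279), and Irf3 with array weights (0.0456). Hmgb1 itself was removed by the filter on dim genes and lost its call with all probe sets (adjusted p = 0.0652). The signal limited the reading of dim genes, among them Hmgb1, Ccr2, Ccr1, Cxcr2, Cxcr5, S100a8 and Ms4a1.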

Other observations

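Ccl21a and Ccl27a lay only on probe sets shared with other genes and could not be measured alone. The set shared by Ccl21a and its copies, which attract CCR7-bearing cells, had a mean of 7.35 on deleted and 7.65 on control arrays, with 7.12 to 7.63 on deleted and 7.43 to 7.77 on control arrays. Both sets shared by Ccl27a and its copies had means of 8.54 and 8.79 on deleted and 8.66 and 8.91 on control arrays.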
